A study of Mus musculus with 24 samples.

Results

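The 10 genes described here encode the core machinery that moves a cell through the G1 phase: the D-type cyclins *Ccnd1*, *Ccnd2* and *Ccnd3*, the E-type cyclins *Ccne1* and *Ccne2*, the cyclin-dependent kinases (CDKs) *Cdk4* and *Cdk6*, the CDK inhibitors *Cdkn1b* (p27) and *Cdkn2c* (p18), and the pocket protein *Rb1*. They form a list of gene names, out of 49315 genes in the count table, and all 10 passed the filter on low counts. RNA was sequenced from MS03 cells, an immortalized mouse Schwann cell line that was made *Nf2*-/- by giving Cre to cells of the Nf2 flox/flox genotype. Every group, DMSO included, is this line with this genotype, grown with fetal bovine serum and collected after 24 hours. The 8 groups of 3 replicates received DMSO, a focal adhesion kinase (FAK) kinase inhibitor (defactinib, VS-4718, GSK2256098 or IN10018, each at 1 μM), or a FAK PROTAC (PROTAC FAK degrader 1 at 1 μM, GSK215 at 0.1 μM or BSJ-04-146 at 0.1 μM). A PROTAC joins a ligand of its target to a ligand of an E3 ubiquitin ligase, so that the target protein is marked for degradation. The question put to the data was how the transcripts of these genes differed between each drug and DMSO, and between drugs used at the same dose. The labels call the replicates biological but name no separate cultures, so *P* values measure the spread between these samples.

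In G1, mitogen and adhesion signals raise the D-type cyclins, which bind CDK4 and CDK6 and phosphorylate RB. Phosphorylated RB releases E2F transcription factors, and these switch on *Ccne1*, *Ccne2* and the genes of DNA replication, after which cyclin E with CDK2 completes the phosphorylation of RB. INK4 proteins such as p18 block CDK4 and CDK6, whereas CIP/KIP proteins such as p27 block cyclin E with CDK2, and Schwann cells are known to lose contact control of this step when *Nf2*, which encodes merlin, is lost.

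The promoters of the cyclin and of the inhibitor that moved farthest apart, and of the kinase that moved least, are shown to place these genes in the genome and to show which common motifs their start sites hold. They run 5′ to 3′ from 250 bases before to 50 bases after the start, from RefSeq on GRCm38.p6, with matched motifs in capitals. Of the 10 genes, 6 had an entry (*Ccnd3*, *Ccne1*, *Cdk4*, *Cdk6*, *Cdkn1b* and *Cdkn2c*), and *Ccnd1*, *Ccnd2*, *Ccne2* and *Rb1* are named only. The windows lie at chr7:38107441-38107740 on the minus strand for *Ccne1*, at chr6:134920151-134920450 on the plus strand for *Cdkn1b* and at chr10:127063285-127063584 on the plus strand for *Cdk4*.
Ccne1: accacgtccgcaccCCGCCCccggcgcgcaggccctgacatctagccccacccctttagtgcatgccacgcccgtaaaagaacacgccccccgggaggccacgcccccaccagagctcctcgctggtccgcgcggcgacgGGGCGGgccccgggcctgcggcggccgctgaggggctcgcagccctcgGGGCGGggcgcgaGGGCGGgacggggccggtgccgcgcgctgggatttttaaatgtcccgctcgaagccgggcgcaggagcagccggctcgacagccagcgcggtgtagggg
Cdkn1b: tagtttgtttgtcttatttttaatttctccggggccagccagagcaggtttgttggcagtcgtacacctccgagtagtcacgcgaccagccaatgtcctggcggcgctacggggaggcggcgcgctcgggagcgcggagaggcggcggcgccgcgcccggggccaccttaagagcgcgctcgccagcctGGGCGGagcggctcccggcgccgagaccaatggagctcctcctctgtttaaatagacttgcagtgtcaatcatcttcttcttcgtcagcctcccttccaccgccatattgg
Cdk4: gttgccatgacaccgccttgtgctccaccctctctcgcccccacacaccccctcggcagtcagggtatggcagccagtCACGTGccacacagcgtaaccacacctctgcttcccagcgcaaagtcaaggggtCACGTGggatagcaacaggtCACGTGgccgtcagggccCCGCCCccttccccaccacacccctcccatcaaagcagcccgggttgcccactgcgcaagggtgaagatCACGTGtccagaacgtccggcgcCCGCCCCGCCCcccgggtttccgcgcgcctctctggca
Both strands were searched for a GC box (GGGCGG), an E-box (CACGTG), E2F-type letters (TTCCCGC and the variants with the letters TTGGCGC, with the letters TTCGCGC and with the letters TTGCCGC) and FOXO-type letters (GTAAACA). *Ccne1* had 4 GC boxes, *Cdkn1b* had 1 and *Cdk4* had 3, a pair of which overlapped, and *Cdk4* also had 4 E-boxes. A GC box was in 35.66% of all 32851 windows of this length and an E-box in 7.15%. E2F-type letters were in 9.57% of all windows and were matched in *Cdkn2c* alone among the 6 genes, and FOXO-type letters were in 3.65% and were matched in 1 of the 2 windows of *Ccnd3*. A match is a description of these letters and not of a bound site.

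The libraries held 14472462 to 27449516 counts, and those of the PROTAC groups (14472462 to 21588406) were below those of the other groups (21654444 to 27449516). Counts per library ran from 201 to 1360 for *Ccne1* and from 283 to 664 for *Rb1*, the least counted genes, and from 4996 to 15940 for *Ccnd1*, the most counted in DMSO libraries. Levels are given as CPM, counts relative to library size, scaled by the trimmed mean of M values (TMM). *Nf2* had 2360 to 5066 counts per library, and counts per gene cannot show whether exons were deleted. Of 9 Schwann cell markers, 6 were above 1 CPM with DMSO, among them *Sox10* at 20.1 CPM and *Foxd3* at 19.0 CPM, whereas *S100b* and *Gfap* had at most 18 counts in any library. The defining markers of macrophages (*Ptprc* and *Adgre1*), endothelial cells (*Cdh5* and *Kdr*) and neurons (*Rbfox3*) had at most 3 counts, as did the fibroblast markers *Dcn* and *Lum*, but other genes of those lists were not low, with *Col1a1* at 392 CPM, *Map2* at 59.1, *Pdgfra* at 12.4, *Cd68* at 3.35 and *Tubb3* at 2.79 CPM with DMSO. The summed level of the Schwann cell markers was 56.2 to 59.9 CPM with DMSO, 59.1 to 61.4 with IN10018, 50.5 to 57.3 with PROTAC FAK degrader 1, 78.4 to 82.3 with GSK2256098, 78.5 to 87.4 with defactinib, 116 to 132 with VS-4718, 213 to 233 with BSJ-04-146 and 235 to 247 with GSK215. The macrophage list was at 3.71 to 4.08 CPM with DMSO, 3.79 to 4.43 with IN10018, 4.28 to 4.60 with GSK2256098, 4.58 to 5.28 with defactinib, 5.20 to 6.17 with VS-4718, 6.20 to 7.88 with GSK215, 7.84 to 9.34 with BSJ-04-146 and 11.2 to 12.03 with PROTAC FAK degrader 1. The fibroblast list was at 395 to 414 CPM with DMSO, 437 to 505 with defactinib, 459 to 515 with VS-4718, 428 to 473 with GSK2256098 and 469.8 to 476 with GSK215, all above DMSO, at 291 to 297 with PROTAC FAK degrader 1 and 361 to 393 with BSJ-04-146, both below, and at 383 to 419 with IN10018. The neuron list was at 61.5 to 62.5 CPM with DMSO and 58.1 to 62.7 with PROTAC FAK degrader 1, and lay above DMSO with the other 6 drugs, at 64.3 to 89.0 CPM. Most of each of these last 3 sums with DMSO was a single gene. This was *Cd68* in the macrophage list, *Col1a1* in the fibroblast list and *Map2* in the neuron list. *Ptprc* and *Adgre1* had at most 1 count in any library, so the macrophage sum is no measure of macrophages. The part of these lists in the results below was not tested.

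Analysis of the group with DMSO revealed that *Cdk4* and *Ccnd1* transcripts were by far the most abundant of the 10. Per kilobase of exon, *Cdk4* stood at 159 ± 3.58 CPM per kb (SD, n = 3) and *Ccnd1* at 129.5 ± 2.00. The other genes were lower, at 22.4 ± 0.553 CPM per kb for *Ccnd2*, 21.2 ± 0.338 for *Cdkn1b*, 19.0 ± 0.541 for *Ccne2* and 15.7 ± 0.432 for *Ccne1*. *Cdkn2c* was at 15.2 ± 0.867, *Cdk6* at 12.7 ± 0.481, *Ccnd3* at 12.5 ± 0.464 and *Rb1*, the lowest, at 2.44 ± 0.0600. The lengths join all annotated exons of a gene, so the order of these genes depends on them. In CPM, *Cdk6* (178) and *Ccnd3* (110) were above *Cdkn2c* (40.9).

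With PROTAC FAK degrader 1, *Ccne1* and *Ccne2* fell to 26.4% and 26.8% of their level with DMSO while *Cdkn1b* and *Rb1* rose to 198% and 212%. With GSK215 and BSJ-04-146, the changes were largest in *Ccnd1* and *Ccnd2* and smaller in the E-type cyclins. Among the kinase inhibitors, the fall of *Ccnd1* with VS-4718 was the largest change. At an edgeR adjusted *p* under 0.05, 2 genes rose and 6 fell with PROTAC FAK degrader 1 (66.8% of all 16070 genes tested were called), 3 rose and 7 fell with GSK215 (54.7%), and 3 rose and 7 fell with BSJ-04-146 (54.6%). With VS-4718, 3 rose and 4 fell (39.2% of all genes), with defactinib 3 rose and 2 fell (22.4%), with GSK2256098 1 rose and 2 fell (12.5%), and with IN10018 1 rose and 2 fell (13.3%). The 8 genes called with PROTAC FAK degrader 1 are therefore read against a background where most genes were called, and the size of a change is given beside each call. Scaled by library totals alone, the split was 3 up and 5 down with PROTAC FAK degrader 1 and 3 up and 2 down with VS-4718, and with BSJ-04-146 3 rose and 6 fell. With a change of at least 1.5-fold as well, 6 of the 10 genes were called with PROTAC FAK degrader 1 (30.8% of all genes tested), 2 with GSK215 (15.7%), 2 with BSJ-04-146 (16.1%), and 0 with VS-4718 (5.56%), defactinib (1.65%), GSK2256098 (0.778%) and IN10018 (0.660%). Between drugs of the same dose this count was 5 for PROTAC FAK degrader 1 against defactinib (33.3%), 0 for VS-4718 against defactinib (3.88%) and 0 for GSK215 against BSJ-04-146 (1.58%). With defactinib 3 genes were called without any DMSO replicate or without defactinib replicate 1 or 2, and with IN10018 1 gene was called without DMSO replicate 3 or IN10018 replicate 3. Over all genes, leaving out 1 replicate gave 2731 to 2988 calls with defactinib (3594 with all libraries) and 1380 to 1824 with IN10018 (2136). The median log2 fold change of the 10 genes was -0.31, -0.33 and -0.34 with the 3 PROTACs in the same order, beside medians of 0.00, 0.02 and 0.02 over all genes tested. All comparisons with DMSO share the same 3 DMSO libraries.

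**Figure D1:**
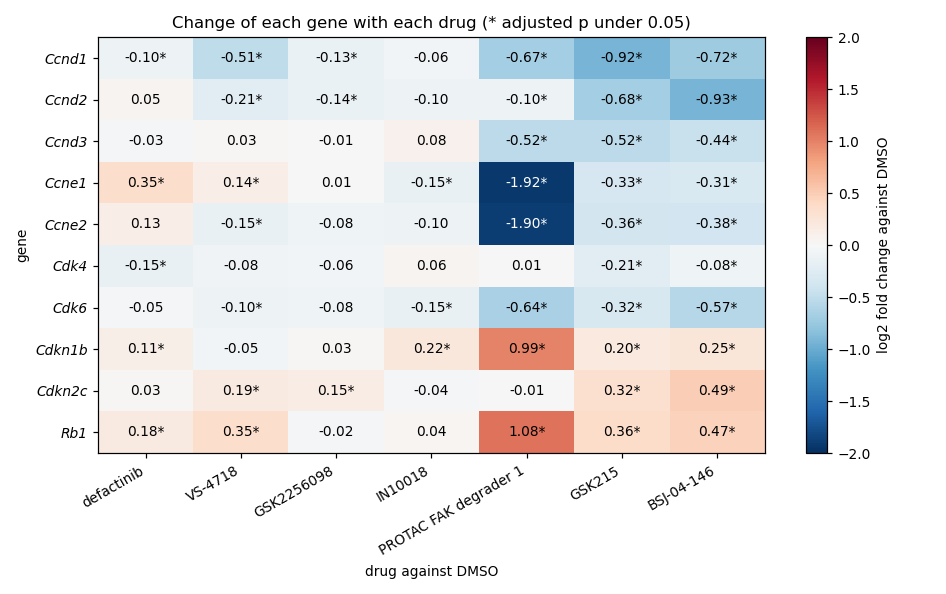
Log2 fold change against DMSO of each gene (rows) with each drug (columns), by color and number, with an asterisk where the edgeR adjusted p was under 0.05. The darkest cells are *Ccne1* (-1.92) and *Ccne2* (-1.90) with PROTAC FAK degrader 1, and *Cdk4* stays between -0.21 and 0.06 across the row.

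Among the D-type cyclins, which carry growth and adhesion signals to CDK4 and CDK6, *Ccnd1* and *Ccnd3* fell with each PROTAC and *Ccnd2* with GSK215 and BSJ-04-146, and *Ccnd3* passed the test with none of the kinase inhibitors. *Ccnd1* (cyclin D1, ENSMUSG00000070348, chr7:144929931-144939925, minus strand, GRCm38) was at 613, 599 and 617 CPM in the 3 DMSO libraries. It was at 328, 313 and 325 CPM with GSK215, at 374, 379 and 359.6 with BSJ-04-146, and at 388, 383 and 376 with PROTAC FAK degrader 1. With VS-4718 it was at 427, 429.6 and 432 CPM. None of these 12 treated libraries reached the lowest DMSO library. In bulk RNA, fewer cells of a kind and less RNA per cell cannot be told apart. Relative to DMSO, *Ccnd1* fell by 0.92 on the log2 scale with GSK215 (SE 0.0300, edgeR adjusted *p* = 9.21e-26), to 52.8% of its DMSO level, and 356 of the 16070 genes tested had a lower log2 fold change. It fell by 0.72 with BSJ-04-146 (SE 0.0298, edgeR adjusted *p* = 2.23e-22), by 0.67 with PROTAC FAK degrader 1 (SE 0.0297, edgeR adjusted *p* = 3.88e-22) and by 0.51 with VS-4718 (SE 0.0294, edgeR adjusted *p* = 4.06e-17). In that order, 723, 2277 and 1081 genes had a lower log2 fold change. Smaller falls were called with GSK2256098 (-0.13, to 91.1% of DMSO) and defactinib (-0.10, to 93.1%). IN10018, at 564 to 597 CPM, did not pass (-0.06, edgeR adjusted *p* = 0.165). In the annotation used, 23.36% of the exon bases of *Ccnd1* overlap *LTO1* on the opposite strand. No counted gene had that name, so its change is not given and its part in the result was not tested. Whether counting used strand is not given in the sources used here, so that reads of overlapping genes cannot be told apart.

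*Ccnd2* (cyclin D2, ENSMUSG00000000184, chr6:127125162-127152193, minus strand) was at 217, 209 and 208 CPM with DMSO, at 133, 133 and 129 with GSK215 and at 108, 105 and 118 with BSJ-04-146. None of those 6 libraries reached the lowest DMSO library, and those of BSJ-04-146 lay below those of GSK215. *Ccnd2* fell by 0.93 with BSJ-04-146 (SE 0.0381, edgeR adjusted *p* = 1.26e-22) and by 0.68 with GSK215 (SE 0.0374, edgeR adjusted *p* = 1.61e-18). With PROTAC FAK degrader 1, in contrast to *Ccnd1*, it was at 196, 194 and 199 CPM, 93.0% of its DMSO level. This log2 fold change of -0.10 had an edgeR adjusted *p* of 0.0106, which became 0.0724 without DMSO replicate 1 and 0.625 with a log2 fold change of -0.02 by library totals alone. Falls with VS-4718 (-0.21, 175 to 187 CPM) and GSK2256098 (-0.14, 188 to 197 CPM) were also called, whereas defactinib (0.05, edgeR adjusted *p* = 0.378) and IN10018 (-0.10, edgeR adjusted *p* = 0.0567) were not. The latter passed with DESeq2 (adjusted *p* = 0.043) and in an edgeR fit of the 6 libraries alone (adjusted *p* = 0.0118).

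*Ccnd3* (cyclin D3, ENSMUSG00000034165, chr17:47505051-47599691, plus strand) was at 115, 108 and 107 CPM with DMSO and at 102 to 120.3 CPM over the 12 kinase inhibitor libraries. With PROTAC FAK degrader 1 it was at 78.5, 76.0 and 74.6 CPM, with GSK215 at 73.1, 78.3 and 77.6, and with BSJ-04-146 at 80.1, 82.2 and 80.3. None of the 9 PROTAC libraries reached the lowest DMSO library. The log2 fold changes were -0.52 (SE 0.0404, edgeR adjusted *p* = 1.32e-14), -0.52 (SE 0.0409, edgeR adjusted *p* = 5.01e-14) and -0.44 (SE 0.0408, edgeR adjusted *p* = 4.64e-12), and none of the 4 kinase inhibitors passed, with log2 fold changes between -0.03 and 0.08. With PROTAC FAK degrader 1, GSK215 and BSJ-04-146, 3136, 1272 and 1923 of all 16070 genes had a lower log2 fold change. *Bysl*, a ribosome biogenesis gene on the opposite strand that shares 4.11% of the exon bases of *Ccnd3*, fell by 1.26, 0.61 and 0.51 with the same 3 drugs, and its part in the result was not tested.

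Summed per kilobase of exon, the D-type cyclins were at 166, 162 and 165 CPM per kb in the DMSO libraries. The sum was at 92.2, 89.5 and 91.5 with GSK215, at 98.1 to 101 with BSJ-04-146, at 112, 111 and 109 with PROTAC FAK degrader 1 and at 123, 124 and 124 with VS-4718. It was at 148 to 152 with GSK2256098, at 155 to 158 with defactinib and at 154 to 161 with IN10018. All 7 groups lay below DMSO without overlap, at the smallest *p* that an exact permutation test of 3 against 3 libraries can give (two-sided *p* = 0.1). *Ccnd1* made up 78.8% ± 0.499 (SD, n = 3) of the sum with DMSO, 73.3% ± 0.310 with PROTAC FAK degrader 1, 74.0% ± 0.115 with VS-4718, 75.1% ± 0.728 with GSK215, 77.3% ± 0.855 with defactinib, 78.3% ± 0.432 with GSK2256098, 78.4% ± 0.550 with IN10018 and 79.0% ± 0.961 with BSJ-04-146. The shares with PROTAC FAK degrader 1, VS-4718, GSK215 and defactinib lay below those with DMSO without overlap.

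**Figure D2:**
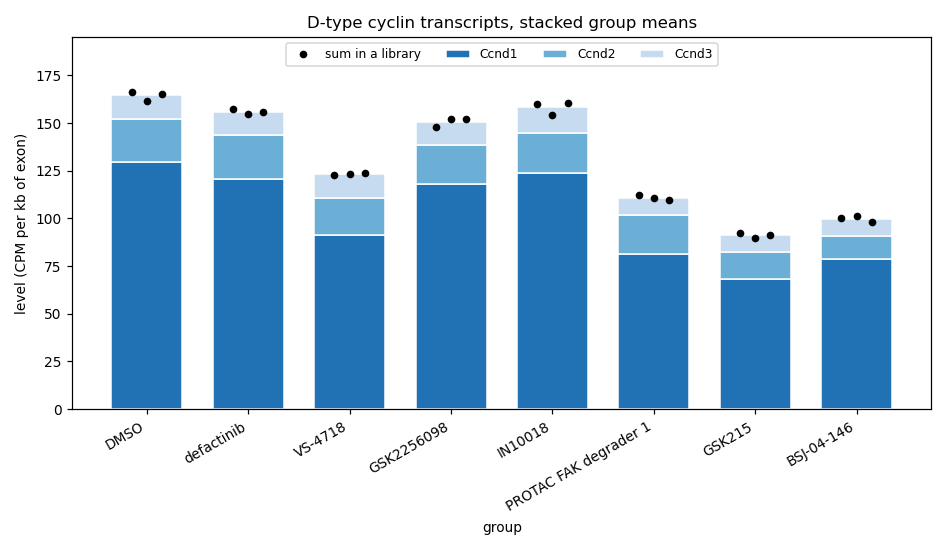
Group means of the 3 D-type cyclins, stacked, in CPM per kb of exon, with the sum in each of the 3 libraries of a group as black points. *Ccnd1* is the largest share in every group, and the sum is 89.5 to 92.2 CPM per kb with GSK215 against 162 to 166 with DMSO.

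The E-type cyclins, which activate CDK2 late in G1 and are E2F targets themselves, both fell with each of the 3 PROTACs. *Ccne1* (cyclin E1, ENSMUSG00000002068, chr7:38097984-38107534, minus strand), whose promoter is shown above, was at 41.3, 41.1 and 43.2 CPM with DMSO and at 10.7, 11.9 and 10.6 CPM with PROTAC FAK degrader 1. The other 21 libraries lay between 31.8 and 54.2 CPM. *Ccne1* fell by 1.92 (SE 0.0599, edgeR adjusted *p* = 5.87e-27), to 26.4% of DMSO, and 169 of the 16070 genes tested had a lower log2 fold change. *Ccne2* (cyclin E2, ENSMUSG00000028212, chr4:11191351-11204779, plus strand) went from 65.2, 68.7 and 65.6 CPM with DMSO to 17.0, 19.4 and 17.1 CPM. *Ccne2* fell by 1.90 (SE 0.0620, edgeR adjusted *p* = 2.54e-26), to 26.8%, and 177 genes had a lower log2 fold change. *Ints8*, which shares 17.42% of the exon bases of *Ccne2* on the opposite strand, fell by 1.04 with this drug, and its part in the result was not tested, whereas *Ccne1* overlaps no annotated gene.

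With GSK215 and BSJ-04-146, *Ccne1* was at 33.0, 35.3 and 31.8 CPM and at 33.7, 34.3 and 33.3 CPM, below every DMSO library. The log2 fold changes were -0.33 (SE 0.0501, edgeR adjusted *p* = 5.15e-07) and -0.31 (SE 0.0503, edgeR adjusted *p* = 1.35e-06). *Ccne2* fell by 0.36 and 0.38 with the same drugs, to 77.9% and 77.1% of DMSO, and its opposite-strand partner *Ints8* fell as well (-0.23 and -0.24), whose part was not tested. The doses differ from that of PROTAC FAK degrader 1, so these values are given side by side and not compared. The kinase inhibitors moved the E-type cyclins in both directions. *Ccne1* was at 54.2, 52.4 and 53.5 CPM with defactinib, above every DMSO library, a rise of 0.35 (SE 0.0454, edgeR adjusted *p* = 2.54e-07). It rose by 0.14 with VS-4718 (edgeR adjusted *p* = 0.0149, and 0.0775 to 0.0923 without DMSO replicate 1 or 2 or VS-4718 replicate 2 or 3), while *Ccne2* fell by 0.15 with that drug (edgeR adjusted *p* = 0.0128, 0.0572 without DMSO replicate 2, 0.0827 without VS-4718 replicate 1, and 0.0667 by library totals alone). *Ccne1* fell by 0.15 with IN10018 (edgeR adjusted *p* = 0.0311, and 0.0519 to 0.133 without DMSO replicate 2 or 3 or any IN10018 replicate). *Ccne2* did not pass with defactinib (0.13, edgeR adjusted *p* = 0.0585, but 0.0318 by library totals alone, 0.0148 in a fit of the 6 libraries alone and 0.03 without defactinib replicate 3), GSK2256098 or IN10018.

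**Figure D3:**
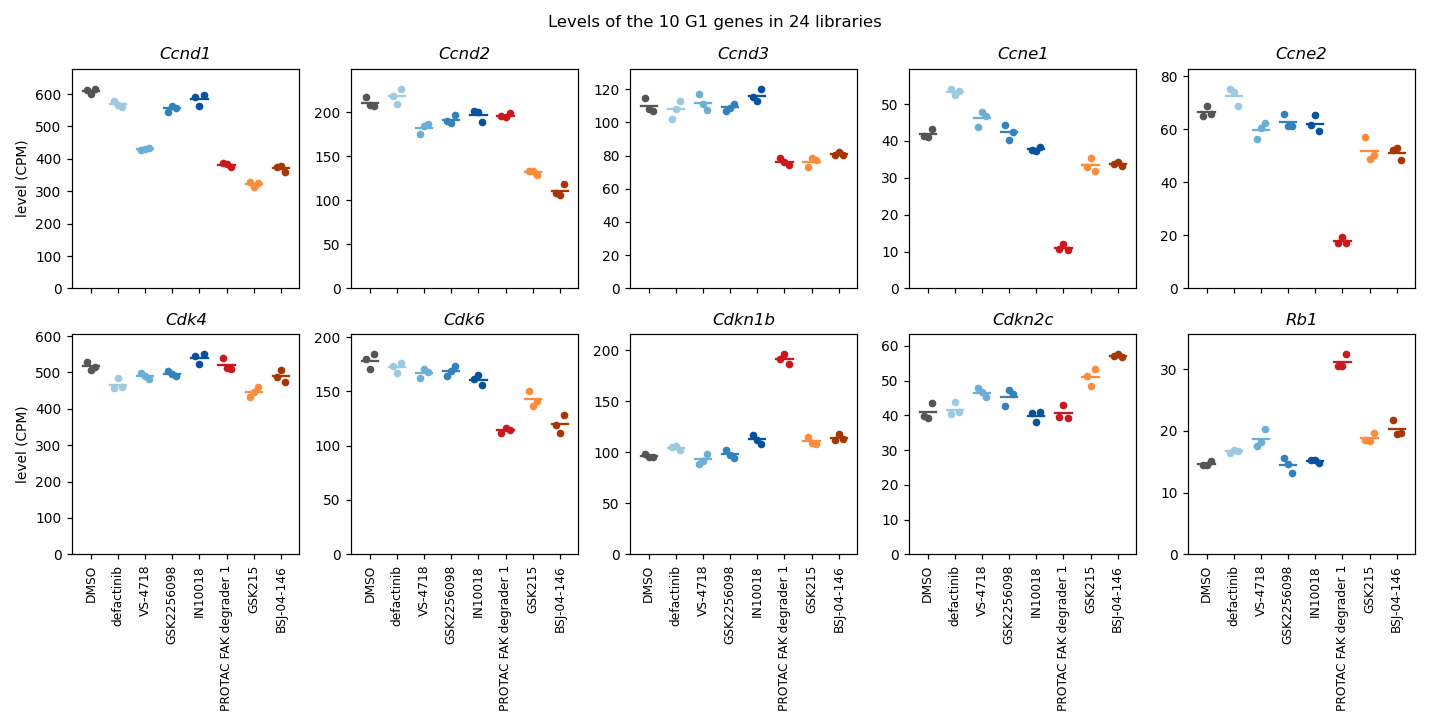
Level in CPM (vertical axis, from 0) of each gene in each of the 24 libraries, with a point per library and a bar at the mean of the 3 libraries of a group. With PROTAC FAK degrader 1, *Ccne1* and *Ccne2* lie below and *Cdkn1b* and *Rb1* above DMSO, and with GSK215 and BSJ-04-146, *Ccnd1* and *Ccnd2* lie below and *Cdkn2c* above DMSO.

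The kinases that the D-type cyclins bind behaved differently from each other. *Cdk4* (ENSMUSG00000006728, chr10:127063534-127067920, plus strand) had the narrowest range of the 10 genes, 0.27 on the log2 scale over the 8 group means. It was at 529, 506 and 516 CPM with DMSO and at 541, 512 and 510.3 CPM with PROTAC FAK degrader 1, and these libraries overlapped (log2 fold change 0.01, 95% interval -0.05 to 0.08, edgeR adjusted *p* = 0.771). By library totals alone that difference was 0.09 (edgeR adjusted *p* = 0.00545). *Cdk4* fell by 0.21 with GSK215 (434, 446 and 461 CPM, edgeR adjusted *p* = 7.16e-07) and by 0.15 with defactinib (456, 484 and 461 CPM, edgeR adjusted *p* = 7.28e-04). Over 12 alternatives the log2 fold change with GSK215 ranged from -0.233 to -0.086, and it stayed called in each. With VS-4718 (-0.08, 483 to 498 CPM, below every DMSO library) *Cdk4* had an edgeR adjusted *p* of 0.0597, which was 0.0241 with DESeq2, 0.0251 in a fit of the 6 libraries alone, 0.0307 without DMSO replicate 2 and 0.0376 without VS-4718 replicate 1, and ranged from 0.0241 to 0.344 over 12 alternatives. The fall with BSJ-04-146 (-0.08, edgeR adjusted *p* = 0.0354) changed sign to 0.03 (edgeR adjusted *p* = 0.43) by library totals alone. Its adjusted *p* by edgeR was 0.0522 to 0.137 without DMSO replicate 1 or 3 or BSJ-04-146 replicate 1 or 3, and 0.0522 in a fit of the 6 libraries alone. *Tspan31*, which shares 19.73% of the exon bases of *Cdk4* on the opposite strand, rose by 0.16 with defactinib, opposite to *Cdk4*, but fell with *Cdk4* with BSJ-04-146 (-0.18, edgeR adjusted *p* = 1.89e-04), where its part was not tested. It also fell with PROTAC FAK degrader 1 (-0.32) and did not pass with GSK215 (-0.03).

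*Cdk6* (ENSMUSG00000040274, chr5:3341485-3531008, plus strand) was at 179.8, 171 and 184 CPM with DMSO. It was at 112, 116 and 115 CPM with PROTAC FAK degrader 1, at 119, 111 and 129 with BSJ-04-146 and at 150.2, 136 and 141 with GSK215. All 9 PROTAC libraries lay below the DMSO libraries. The log2 fold changes were -0.64 (SE 0.0402, edgeR adjusted *p* = 2.57e-17), -0.57 (SE 0.0405, edgeR adjusted *p* = 2.65e-15) and -0.32 (SE 0.0398, edgeR adjusted *p* = 5.97e-09). In that order, 2445, 1177 and 2884 of all 16070 genes had a lower log2 fold change. Among the kinase inhibitors *Cdk6* fell by 0.15 with IN10018 (edgeR adjusted *p* = 0.00724, 0.0563 without DMSO replicate 3 and 0.056 without IN10018 replicate 3) and by 0.10 with VS-4718 (edgeR adjusted *p* = 0.0431, 0.072 to 0.137 without DMSO replicate 1 or 3 or VS-4718 replicate 1, and 0.264 by library totals alone).

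The CIP/KIP inhibitor *Cdkn1b* (p27, ENSMUSG00000003031, chr6:134920401-134925513, plus strand), whose protein restrains cyclin E with CDK2, rose with each of the 3 PROTACs. It was at 98.1, 95.8 and 95.2 CPM with DMSO and at 192, 196 and 186 CPM with PROTAC FAK degrader 1. The other 21 libraries lay between 88.9 and 118 CPM. The rise was 0.99 (SE 0.0380, edgeR adjusted *p* = 5.21e-24), to 198% of DMSO, and 1375 of the 16070 genes tested had a higher log2 fold change. Smaller rises were called with BSJ-04-146 (0.25, 112 to 118 CPM), IN10018 (0.22, 108 to 117 CPM) and GSK215 (0.20, 108 to 115 CPM), and each of these groups lay above the 3 DMSO libraries. A rise of 0.11 with defactinib (edgeR adjusted *p* = 0.0311) had adjusted *p* values of 0.0515 to 0.12 without any DMSO replicate or without defactinib replicate 1 or 2. *Cdkn1b* did not pass with VS-4718 (-0.05, edgeR adjusted *p* = 0.335, but -0.11 and 0.036 without VS-4718 replicate 3) or GSK2256098 (0.03, edgeR adjusted *p* = 0.718).

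Within a library the ratio of *Cdkn1b* to *Ccne1* counts needs no scaling between libraries. On the log2 scale this ratio was 1.25, 1.22 and 1.14 in the DMSO libraries and 4.17, 4.04 and 4.14 with PROTAC FAK degrader 1, a difference of 2.91. It was 1.80, 1.63 and 1.76 with GSK215, 1.73, 1.79 and 1.77 with BSJ-04-146 and 1.64, 1.59 and 1.49 with IN10018, all above DMSO. With defactinib (0.93 to 1.02) and VS-4718 (0.93 to 1.08) it lay below DMSO, and with GSK2256098 (1.16 to 1.28) it overlapped. For the 6 drugs without overlap, the exact permutation test gave the smallest *p* that 3 against 3 libraries allow (two-sided *p* = 0.1, 7 drugs compared, so that none can pass 0.05).

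**Figure D4:**
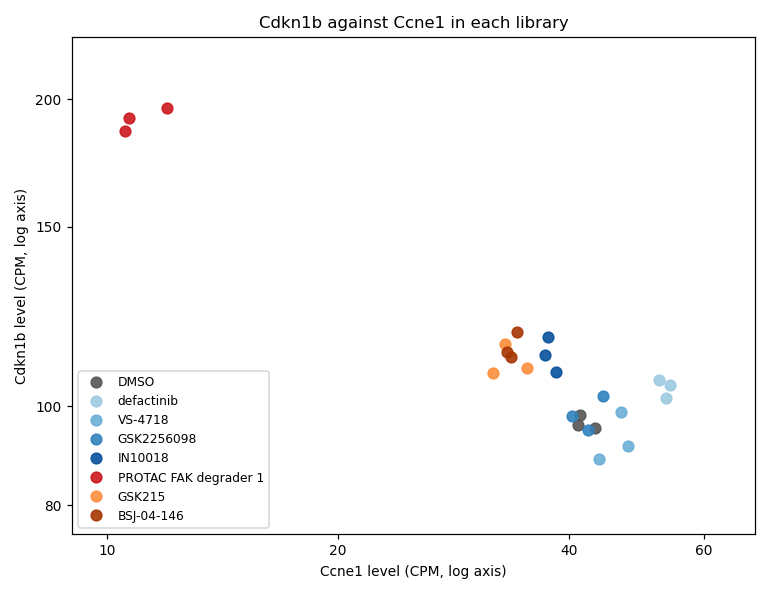
Level of *Cdkn1b* against level of *Ccne1*, both in CPM on log axes, with a point for each of the 24 libraries colored by group. The 3 libraries of PROTAC FAK degrader 1 lie at 10.6 to 11.9 CPM of *Ccne1* and 186 to 196 CPM of *Cdkn1b*, and the DMSO libraries at 41.1 to 43.2 and 95.2 to 98.1.

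The INK4 inhibitor *Cdkn2c* (p18, ENSMUSG00000028551, chr4:109660876-109667189, minus strand), whose protein binds CDK4 and CDK6, rose as *Cdkn1b* did with GSK215 and BSJ-04-146. With PROTAC FAK degrader 1, *Cdkn2c* did not follow *Cdkn1b*. It was at 39.8, 39.3 and 43.6 CPM with DMSO and at 39.6, 43.1 and 39.3 CPM with PROTAC FAK degrader 1, which overlapped (log2 fold change -0.01, 95% interval -0.11 to 0.10, edgeR adjusted *p* = 0.896). It was at 57.2, 57.6 and 57.0 CPM with BSJ-04-146 and at 51.3, 48.6 and 53.4 with GSK215, all above the DMSO libraries. The rises were 0.49 (SE 0.0503, edgeR adjusted *p* = 9.04e-11) and 0.32 (SE 0.0509, edgeR adjusted *p* = 9.81e-07). *Cdkn2c* also rose by 0.19 with VS-4718 (45.2 to 47.8 CPM, edgeR adjusted *p* = 0.00222) and by 0.15 with GSK2256098 (edgeR adjusted *p* = 0.0357, and 0.143 to 0.221 without DMSO replicate 1 or 2 or GSK2256098 replicate 2 or 3).

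*Rb1* (ENSMUSG00000022105, chr14:73183673-73325822, minus strand), which encodes the pocket protein that holds E2F factors inactive, was at 14.5, 14.5 and 15.1 CPM with DMSO and at 30.5, 30.6 and 32.4 CPM with PROTAC FAK degrader 1. All other libraries were between 13.2 and 21.7 CPM. The rise was 1.08 (SE 0.0631, edgeR adjusted *p* = 2.92e-18), to 212% of DMSO. *Rb1* was at 21.7, 19.5 and 19.7 CPM with BSJ-04-146, at 18.6, 18.4 and 19.6 with GSK215 and at 17.6, 18.2 and 20.3 with VS-4718. These rises of 0.47, 0.36 and 0.35 were called (edgeR adjusted *p* = 2.35e-07, 2.17e-05 and 3.83e-05) with no overlap with DMSO. With defactinib the rise of 0.18 (16.4 to 17.0 CPM, edgeR adjusted *p* = 0.0488) was lost without any 1 of the 6 libraries (adjusted *p* 0.0679 to 0.138) and with DESeq2 (0.0814). *Lpar6* and *Rcbtb2*, receptor and RCC1-domain genes on the opposite strand that together share 14.9% of the exon bases of *Rb1*, moved opposite to *Rb1* with PROTAC FAK degrader 1 (-0.80 and -0.15). They rose with *Rb1* with GSK215 (0.39 and 0.36) and BSJ-04-146 (0.19 and 0.42), and *Lpar6* rose with *Rb1* with VS-4718 (0.15) and defactinib (0.21), and their part in those rises was not tested.

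To compare drugs at a matched dose and time, 3 pairs were set against each other. PROTAC FAK degrader 1, whose FAK-binding part is derived from defactinib, differed from defactinib (both 1 μM) in 9 of the 10 genes, 3 higher and 6 lower, where 68.9% of all genes tested were called. *Ccne1* was lower by a log2 difference of -2.27 (95% interval -2.39 to -2.16, edgeR adjusted *p* = 1.21e-29) and *Ccne2* by -2.03 (95% interval -2.15 to -1.90). *Rb1* was higher by 0.90 (95% interval 0.78 to 1.03) and *Cdkn1b* by 0.87 (95% interval 0.80 to 0.95). *Cdk6*, *Ccnd1*, *Ccnd3* and *Ccnd2* were lower by differences of -0.60, -0.57, -0.50 and -0.15, and *Cdk4* was higher by 0.16. *Cdkn2c* did not pass, with an interval of -0.14 to 0.07.

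GSK215 and BSJ-04-146 (both 0.1 μM) differed in 5 of the 10 genes, 2 higher and 3 lower with GSK215, where 22.5% of all genes were called. *Ccnd2* and *Cdk6* were both higher with GSK215 by 0.25 (95% intervals 0.17 to 0.33 and 0.17 to 0.34, edgeR adjusted *p* = 6.83e-06 and 1.85e-05). *Ccnd1* was lower by -0.20 (95% interval -0.27 to -0.14) and *Cdk4* by -0.13 (95% interval -0.20 to -0.06). *Cdkn2c* was lower by -0.16 (edgeR adjusted *p* = 0.016, 0.132 without GSK215 replicate 2 and 0.0592 without BSJ-04-146 replicate 2). The other 5 genes did not pass, with intervals of -0.13 to 0.09 for *Ccne1*, -0.10 to 0.13 for *Ccne2*, -0.13 to 0.03 for *Cdkn1b*, -0.17 to 0.01 for *Ccnd3* and -0.24 to 0.04 for *Rb1*.

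VS-4718 and defactinib (both 1 μM) differed in 7 of the 10 genes, 2 higher and 5 lower with VS-4718, where 34.0% of all genes were called. *Ccnd1* was lower with VS-4718 by -0.40 (95% interval -0.46 to -0.34, edgeR adjusted *p* = 5.8e-14), *Ccne2* by -0.28 (95% interval -0.38 to -0.18), *Ccnd2* by -0.26 (95% interval -0.33 to -0.19), *Ccne1* by -0.21 (95% interval -0.30 to -0.12) and *Cdkn1b* by -0.16 (95% interval -0.24 to -0.09). *Cdkn2c* was higher by 0.16 (edgeR adjusted *p* = 0.00949, 0.0575 to 0.074 without defactinib replicate 1 or 3 or VS-4718 replicate 1) and *Rb1* by 0.17 (edgeR adjusted *p* = 0.0424, 0.0863 with DESeq2, and 0.0775 to 0.342 without any defactinib replicate or without VS-4718 replicate 3). With DESeq2 the split was 1 higher and 5 lower. *Ccnd3* (interval -0.02 to 0.13), *Cdk6* (interval -0.13 to 0.03) and *Cdk4* (interval 0.01 to 0.14, edgeR adjusted *p* = 0.0836) did not pass, although *Cdk4* was called by library totals alone (0.09, adjusted *p* = 0.013).

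Of 27 other genes of the G1 network (further E2F and pocket proteins, CDK2 and its activators, inhibitors, and the SCF ubiquitin ligase that degrades p27 and cyclin E), 26 were tested and *Cdkn1c* had no count in any library. With PROTAC FAK degrader 1, 7 rose and 14 fell, where 66.8% of all genes tested were called, with a median log2 fold change of -0.37. *Cdkn1a* (p21), a CIP/KIP inhibitor, rose by 1.32 (from 16.0 CPM to 249.9% of that level) and the INK4 inhibitor *Cdkn2d* (p19) rose by 0.84, while *Skp2*, the SCF subunit that recognizes p27, fell by 1.22 (from 105 to 45.1 CPM) and the E2F family member *E2f8* fell by 1.16. With GSK215, 4 rose and 17 fell (54.7% of all genes), with a median of -0.26, and 7 rose and 15 fell by library totals alone. With BSJ-04-146, 3 rose and 18 fell (54.6% of all genes), with a median of -0.20, and 5 rose and 12 fell by library totals alone. With both, *Rbl2*, a pocket protein, rose (0.42 and 0.43), as did *Cdkn2a* (0.31 and 0.54), the INK4A and ARF locus, and *Cdc25a*, a phosphatase that activates CDK2, fell by 0.63 and 0.64. Between drugs of the same dose, 7 were higher and 15 lower with PROTAC FAK degrader 1 than with defactinib (68.9% of all genes called), 7 higher and 6 lower with VS-4718 than with defactinib (34.0%), and 2 higher and 7 lower with GSK215 than with BSJ-04-146 (22.5%). The last count of 9 was 4 without GSK215 replicate 1 and 5 without BSJ-04-146 replicate 2. Of all 16402 and 16415 genes tested in those fits, 1292 and 1153 were called higher with GSK215 and 1555 and 1421 lower.

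*Cdkn1a* was named with all 7 drugs and did not move in 1 direction. It was at 16.0 CPM with DMSO and fell by 1.82 with GSK215 (to 4.47 CPM), by 1.18 with BSJ-04-146 (to 7.03 CPM), by 1.00 with VS-4718, by 0.68 with defactinib and by 0.62 with GSK2256098. With IN10018, as with PROTAC FAK degrader 1, it rose (0.76, to 27.2 CPM). *Cdkn2d* was likewise higher with IN10018 (0.17) and PROTAC FAK degrader 1 (0.84), both called. It was lower with GSK215 (-0.49), BSJ-04-146 (-0.20) and defactinib (-0.20), all called. Its values with VS-4718 and GSK2256098 are not given here. With the kinase inhibitors the counts were 5 up and 11 down with VS-4718 (39.2% of all genes called, 8 and 9 by library totals alone), 5 up and 3 down with IN10018 (13.3% of all genes, 4 to 5 called without DMSO replicate 1 or 2 or IN10018 replicate 1 or 3), 1 up and 5 down with defactinib (22.4%), and 1 up and 2 down with GSK2256098 (12.5%). Named from these were *Cdkn2a* (0.29), *Rbl2* (0.22, adjusted *p* = 0.00676 by edgeR, 0.113 without DMSO replicate 1) and *E2f1* (-0.37) with VS-4718, and *Cdkn2b* (0.22, 0.0772 without IN10018 replicate 1), *Cdc25a* (-0.17) and *E2f8* (-0.17, 0.0548 without IN10018 replicate 1) with IN10018. With defactinib *E2f3* was named (0.14, adjusted *p* by edgeR 0.0606 to 0.162 without DMSO replicate 1 or 2 or defactinib replicate 3), and with GSK2256098 *Rbl1* (0.15, 0.0592 without DMSO replicate 3 and 0.0866 without GSK2256098 replicate 3) and *Ccnh* (-0.17, 0.0507 without DMSO replicate 1 and 0.0612 without GSK2256098 replicate 1).

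Of 20 genes that E2F factors switch on for DNA replication, 18 fell and 1 rose with PROTAC FAK degrader 1 (66.8% of all genes tested were called), with a median log2 fold change of -1.01. The deepest falls were those of *Rrm2*, the regulated subunit of ribonucleotide reductase, by 2.00 (SE 0.0311, edgeR adjusted *p* = 1.5e-36), and of *Cdc6*, a replication licensing factor (-1.72). The licensing factor *Cdt1* rose by 0.41. With GSK215, 19 fell and none rose (54.7% of all genes), with a median of -0.34, and with BSJ-04-146, 17 fell and 1 rose (54.6%), with a median of -0.32. *Rrm2* (-0.69 and -0.63) and the replicative helicase subunit *Mcm3* (-0.60 and -0.51) fell with these drugs. With defactinib, 14 fell (22.4% of all genes), with a median of -0.13, and the helicase subunits *Mcm6* (-0.23) and *Mcm3* (-0.22) fell most, while *Ccne1* rose with the same drug. With VS-4718, 11 fell and 2 rose (39.2% of all genes, 7 and 4 by library totals alone), with *Rrm2* (-0.42) falling and *Chaf1a* (0.20) and *Pcna* (0.11) rising. GSK2256098 gave 2 falls (*Rrm2*, -0.15, and *Rrm1*, -0.09, whose adjusted *p* by edgeR was 0.0527 to 0.155 without any 1 of the 6 libraries) and 1 rise (*Chaf1a*, 0.14, 0.0694 without DMSO replicate 3), with 1 fall and 1 rise by library totals alone and 1 call without DMSO replicate 3, and IN10018 gave 2 falls (*Rrm2*, -0.15, and *Mcm4*, -0.12). These 3 and 2 calls of 20 are near the 12.5% and 13.3% of all genes called with GSK2256098 and IN10018. Of the 20, 10 were higher and 4 lower with VS-4718 than with defactinib (34.0% of all genes called, 11 and 2 by library totals alone, 9 called without VS-4718 replicate 1), 18 were lower and 1 higher with PROTAC FAK degrader 1 than with defactinib (68.9%), and 5 were lower with GSK215 than with BSJ-04-146 (22.5%, 1 called without GSK215 replicate 1, and 2 to 3 without GSK215 replicate 2 or any BSJ-04-146 replicate). When replicates were left out, 4517 to 5175 of all genes were called between VS-4718 and defactinib (5460 with all libraries). Between GSK215 and BSJ-04-146 this was 2574 to 3389 (3615 with all libraries).

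**Figure D5:**
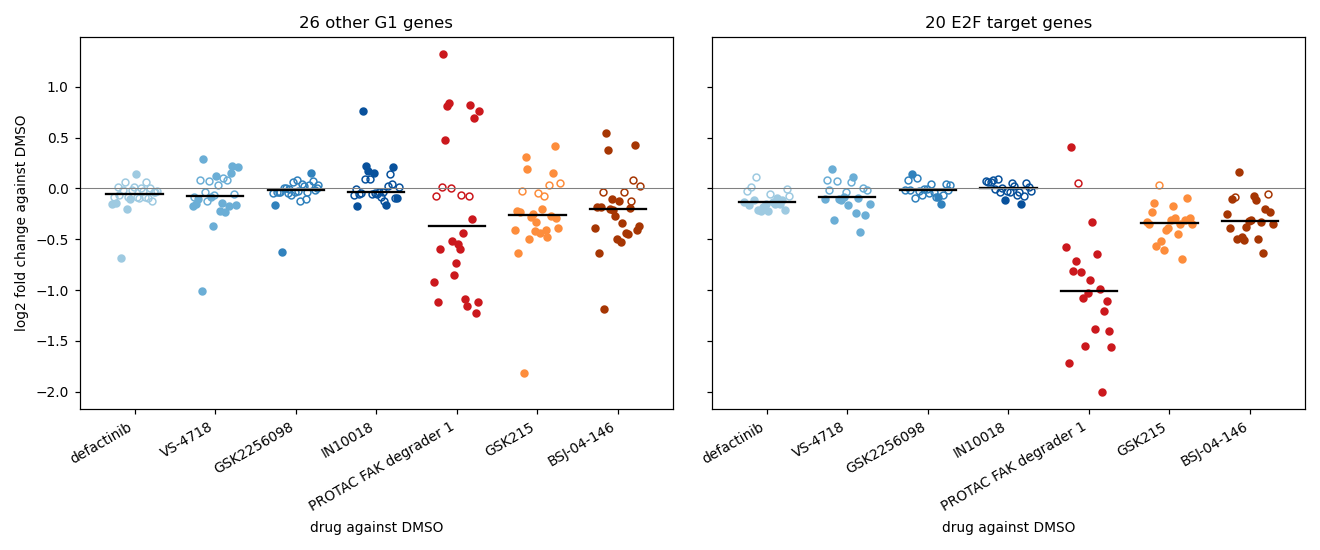
Log2 fold change against DMSO (vertical axis) of 26 other G1 genes (left) and 20 E2F target genes (right) with each of the 7 drugs, with a point per gene, filled where the edgeR adjusted p was under 0.05, and a black line at the median. The medians of the E2F target genes are -1.01, -0.34 and -0.32 with the 3 PROTACs, and lie between -0.13 and 0.00 with the kinase inhibitors.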

How the data were processed

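RNA of 24 libraries of MS03 cells was sequenced after poly(A) selection. The authors deposited unnormalized counts of reads for each Ensembl gene, made per the labels' processing notes with Trimmomatic 0.36, STAR 2.5.2b and featureCounts of Subread 1.5.2 on GRCm38. The annotation release and the strand setting are not given in the sources used here. Coordinates, exon lengths and overlaps are those of GENCODE M21 (GRCm38), which held 49056 of the 49315 identifiers. Total counts per library were 14472462 to 27449516.

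The counts went into edgeR 4.0.16 under R 4.3.3 (TMM, filterByExpr, glmQLFit and glmQLFTest, 1 fit of 24 libraries with 1 coefficient per group, 16 residual degrees of freedom). Tests were two-sided, Benjamini-Hochberg adjustment ran over the 16070 genes that passed the filter, and 0.05 was the threshold. Standard errors are the log2 fold change over the square root of its F statistic, and ratios within a library were compared by exact permutation tests. Levels are CPM on TMM-scaled totals of the genes tested, divided by exon length for levels between genes. The alternatives were DESeq2 1.42.0, library totals alone, limma-trend (limma 3.58.1) on log2(CPM + 4), all genes without the filter, a replicate block, only the 6 libraries of a comparison, leaving out each replicate, and a change of at least 1.5-fold.

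The members and lists were chosen with earlier results of these data known. Genes named from a list were, for each drug, the 2 largest rises and 2 largest falls among genes past the threshold whose 3 treated libraries lay beyond the 3 DMSO libraries, with at least 1 CPM. *Cdkn2d* was named by this rule only with defactinib and PROTAC FAK degrader 1. Its values with the other drugs given were named outside the rule, and those with IN10018 after they were seen. Some genes that meet this rule or belong to a marker list are not reported here. Replicates differed by more than counting noise (chi-square per degree of freedom 1.80 to 9.45 over 24 pairs).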

Additional observations from a re-analysis of the deposited data

How the results depend on the processing

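Over the 100 log2 fold changes of the 10 genes, 1200 values under alternatives were computed, of which 1101 kept their direction and their side of the threshold, 62 lost the call, 13 gained one and 24 changed sign. Apart from *Cdk4* with BSJ-04-146, the sign changes were in differences that were not called, and the cause was not tested. By library totals alone, *Cdk4* with BSJ-04-146 became 0.029, *Ccnd3* with GSK2256098 0.0021, *Cdkn2c* with PROTAC FAK degrader 1 0.073, and *Cdkn2c* between PROTAC FAK degrader 1 and defactinib 0.030. That scaling shifted the all-gene median to 0.14 (log2) with GSK215 and 0.13 with BSJ-04-146. It gave 6190 genes up and 2867 down with GSK215 (4407 and 4379 by TMM), 6018 and 2966 with BSJ-04-146 (4451 and 4320), and 4015 and 2394 with VS-4718 (3273 and 3030).

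When single replicates were left out, differences near zero changed sign. *Ccnd3* ranged from -0.065 to 0.0052 with defactinib, from -0.016 to 0.045 with VS-4718 and from -0.034 to 0.015 with GSK2256098. *Cdkn2c* ranged from -0.012 to 0.070 with defactinib, from -0.067 to 0.0089 with IN10018, from -0.050 to 0.040 with PROTAC FAK degrader 1, and from -0.073 to 0.0056 between that drug and defactinib. With GSK2256098, *Ccne1* ranged from -0.022 to 0.046, *Cdkn1b* from -0.0029 to 0.049, *Rb1* from -0.078 to 0.031, and the log2 ratio of *Cdkn1b* to *Ccne1* against DMSO from -0.018 to 0.039. *Cdk4* ranged from -0.011 to 0.030 with PROTAC FAK degrader 1. Between GSK215 and BSJ-04-146, *Ccne1* ranged from -0.056 to 0.022 and *Ccne2* from -0.048 to 0.061. The log2 ratio of *Cdkn1b* to *Ccne2* with defactinib ranged from -0.042 to 0.012.

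Counts of calls among the 10 genes ranged from 3 to 5 with defactinib and from 1 to 3 with IN10018 when replicates were left out. There, 2731 to 2988 and 1380 to 1824 of all genes were called (3594 and 2136 with all libraries). Without the filter 3 of the 10 were called with defactinib, where 1571 of all 31699 genes rose and 1663 fell. With a change of at least 1.5-fold as well, 0 were called with defactinib, VS-4718, GSK2256098 or IN10018, 6 with PROTAC FAK degrader 1, 2 with GSK215, 2 with BSJ-04-146, 5 between PROTAC FAK degrader 1 and defactinib, 0 between GSK215 and BSJ-04-146 and 0 between VS-4718 and defactinib. Among the other G1 genes, 4 to 8 were called with IN10018 and 4 to 7 between GSK215 and BSJ-04-146 (9 with all libraries) when replicates were left out. Of all genes, 2574 to 3389 were then called between GSK215 and BSJ-04-146 (3615 with all libraries). In a fit of the 6 libraries alone, 13 of these G1 genes were called with IN10018, where 1375 of all 14480 genes tested rose and 1409 fell. Among the E2F target genes, 1 to 2 were called with GSK2256098, 9 to 11 between VS-4718 and defactinib and 1 to 4 between GSK215 and BSJ-04-146. The last count was 3 by library totals alone, 2 without the filter and 2 in a fit of the 6 libraries alone. In those settings, 1767, 1541 and 1584 of all genes were called higher with GSK215 and 1802, 1624 and 1807 lower. The count with GSK2256098 was 5 in a fit of the 6 libraries alone, where 1385 of all 14567 genes tested rose and 1495 fell. Over all genes, 1298 to 1622 were called with GSK2256098 when replicates were left out (2001 with all libraries).

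Replicate numbers are shared between groups, but same-numbered libraries did not deviate together (correlations of -0.206 to 0.153, 1 of 30 pairs above 0.1). With the replicate block, 99 of the 100 calls of the 10 genes were as without it, and *Rb1* with defactinib (0.18) had an edgeR adjusted *p* of 0.0553.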

Other observations

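For the 3 genes of the G1 set with the widest range over the group means, the genes with the most similar pattern were sought among 9864 genes with at least 5 CPM, by Pearson correlation of mean log2 CPM over the 8 groups. The groups share library preparation and, against DMSO, the same 3 control libraries, and the correlations are given as a description. *Ccne1*, with a range of 2.22 on the log2 scale, was most like *Ctsc*, a lysosomal protease gene (r = 0.997), *Mum1* (r = 0.993) and *Minpp1*, an inositol phosphate phosphatase gene (r = 0.992). *Ccne2*, with a range of 2.00, was most like *Lsm2*, which encodes a spliceosomal protein (r = 0.996), *Zfp407* (r = 0.994) and *Dna2*, a nuclease and helicase gene of DNA replication (r = 0.994). *Rb1*, with a range of 1.08, was most like *Zfp53* (r = 0.997), *Brox* (r = 0.987) and the forkhead gene *Foxn3* (r = 0.986). Without the group of PROTAC FAK degrader 1, an alternative chosen after seeing the data, these 9 correlations were 0.924 to 0.989 over 7 groups. The 9 genes were picked over 8 groups that include these 7, so the values cannot test whether the likeness holds without that group. *Ccne1* and *Ccne2* were themselves correlated at 0.987 over 8 groups and at 0.874 over 7.

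The share of *Ccne1* in the summed E-type cyclins per kilobase was 45.3% ± 1.18 (SD, n = 3) with DMSO and 44.9% ± 0.237 with PROTAC FAK degrader 1, which overlapped, while the sum went from 34.2 to 35.1 CPM per kb with DMSO to 8.85 to 10.04 CPM per kb. The share lay above that with DMSO (44.0% to 46.4%) without overlap with VS-4718 (49.6% to 50.9%), defactinib (48.2% to 50.5%) and GSK2256098 (46.45% to 47.5%), each at the smallest exact permutation *p* of 3 against 3 libraries (two-sided *p* = 0.1).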
